A study of Sus scrofa with 75 samples.

Results

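The 34 nuclear receptor genes described here were taken by gene name from the deposited annotation, out of 35798 genes in the gene table. They cover the oestrogen-related, thyroid hormone, retinoid, peroxisome proliferator, liver X, farnesoid, xenobiotic, vitamin D, glucocorticoid, clock and orphan receptors. The tissues were heart, kidney, liver, lung and spleen of male pigs (Sus scrofa) aged 12 months, in 2 groups coded BS and DSE in the titles, with 4 animals each. What these codes mean is not in the labels, and neither is a genotype, treatment or diet. The labels also do not give the hour of sampling or a processing batch, so their part in differences between BS and DSE could not be tested. Illumina libraries, 40 in number and depleted of ribosomal RNA, were made 1 per animal and tissue, and PacBio sequencing of full-length transcripts gave 10, 1 per pig group and tissue. Levels are in TPM, a length-adjusted share of each library whose genes sum to 1000000, and are given as the mean ± SD over the 8 animals of a tissue (n = 8) unless another number is stated.

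Nuclear receptors are transcription factors, many of which are switched by small fat-soluble ligands such as steroid and thyroid hormones, retinoic acid, vitamin D, fatty acids, oxysterols and bile acids. Steroid receptors bind DNA as homodimers, while most of the lipid, retinoid, thyroid and vitamin D receptors bind as heterodimers with a retinoid X receptor (RXR). Several members have no known natural ligand and coactivator and corepressor complexes carry out the effect on the target gene.

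Of the 34 genes, 33 reached the level needed for testing between tissues, 1 TPM on average over the animals of some tissue. The progesterone receptor PGR did not, and its highest tissue mean was 0.390 TPM in kidney. Tissues were compared with limma on log2(TPM + 1), and all p-values below were adjusted over all genes tested. All 33 differed over the 5 tissues by the moderated F test, but so did 99.2% of the 16481 genes tested, so that this count is near the background. The median log2 difference between the highest and the lowest tissue was 2.40 for the 33 genes and 1.99 for all genes tested. Kidney had the most of the 34 genes at a mean of 1 TPM or above, with 30, before liver and lung with 27 each, heart with 25 and spleen with 24. Their summed TPM was lowest in heart (515.2 ± 74.8) and highest in spleen (1021 ± 177).

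A TPM is a share of its library, and the libraries differed in what filled them. The mitochondrial genome supplied 38.2% of TPM in heart and 22.6% in kidney, but 9.42% in liver, 7.49% in lung and 6.87% in spleen. Over 8882 genes expressed in all libraries, the median log2 ratio to the common reference was negative for heart (-0.64) and liver (-0.66) and positive for lung (0.56), spleen (0.39) and kidney (0.27), which shifts every gene of a tissue alike. On the TPM scale 16 of the 34 genes were lowest in heart and 3 highest there. After scaling by median ratios these counts were 9 and 6. That scaling changed the highest tissue of 8 genes. It became heart for THRB, RARB and RXRB, liver for NR1D1, NR1D2 and NR2F1, spleen for NR2C2 and kidney for NR2F2. Of these, only RARB had a called gap to the next tissue on the TPM scale (log2 difference 0.65, limma, adjusted p = 0.00145). By mean log2 values the scaling also changed the lowest tissue of ESRRG, THRA, RARA, NR1D1, NR1D2, NR1H2, NR2C1, NR2C2, NR2F2 and NR3C1. For ESR1 it left heart and kidney level at the bottom (log2 difference 0, limma, adjusted p = 0.995). For NR6A1 the lowest tissue by mean level moved from heart to lung. Shares within a receptor family or among the transcripts of a gene are ratios within a library and do not move with the scale. All 8 marker genes fixed for each of the 5 tissues were at least 4-fold higher in their own tissue than in every other. In a bulk sample, fewer cells of a type and less RNA per cell cannot be told apart.

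**Figure D1:**
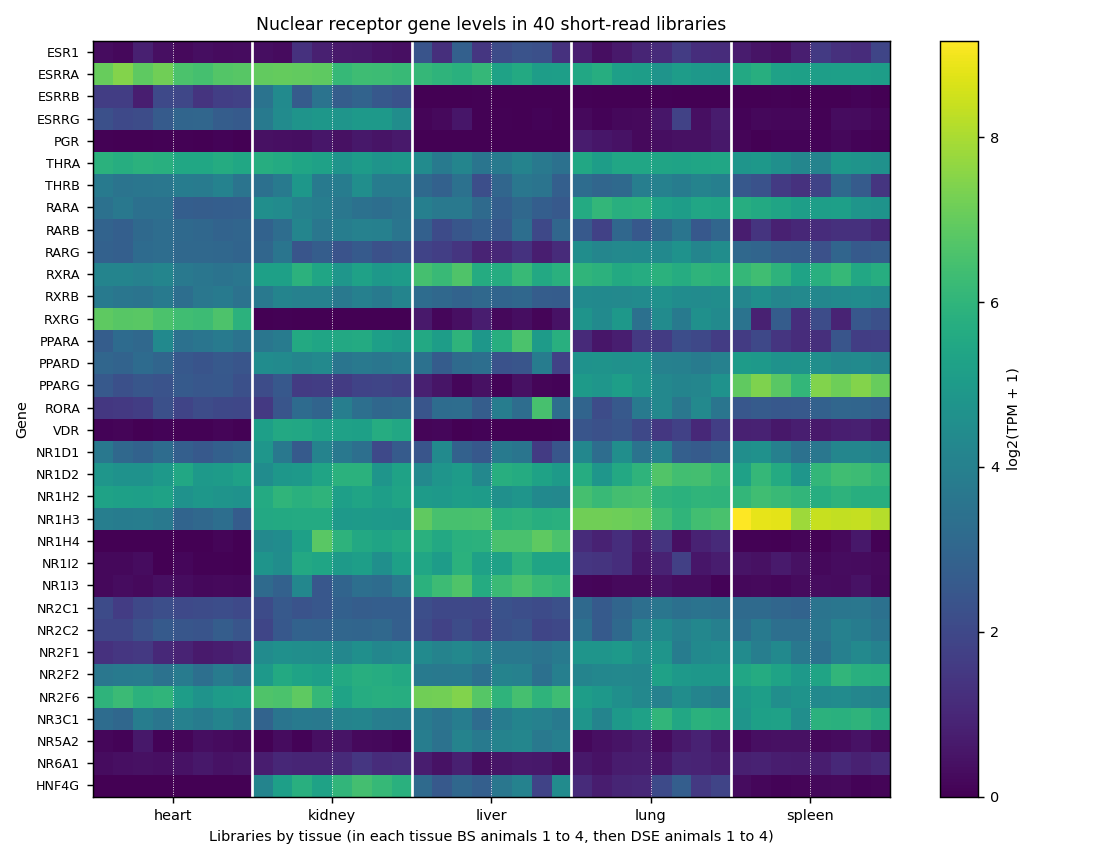
Heat map of log2(TPM + 1) of the 34 receptor genes (rows) in the 40 short-read libraries (columns, ordered by tissue and pig group). Blocks of colour follow the tissues, with ESRRG, VDR and HNF4G high in kidney, RXRG in heart, NR1I3 and NR5A2 in liver and PPARG in spleen.

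A receptor was called enriched where its level was at least 4-fold above that in each of the other tissues and the largest of the adjusted p-values was under 0.05. By this rule 7 of the 33 genes were enriched, against 10.6% of all genes tested, and 1 was depleted on the mirror rule, against 1.7%. Kidney held 3 of them (VDR, ESRRG and HNF4G, against 2.56% of all genes), liver 2 (NR1I3 and NR5A2, 2.2%), heart 1 (RXRG, 1.75%) and spleen 1 (PPARG, 1.48%). Lung held 0, against 2.65% of all genes. The depleted gene was NR2F1 in heart.

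The vitamin D receptor VDR, which directs calcium and phosphate handling, had the sharpest restriction among the kidney genes. Its kidney values ran from 34.8 over a median of 40.5 to 49.6 TPM, and its lung values from 1.08 over 2.73 to 4.41 TPM. The ranges lay far apart, and the log2 difference was 3.49 ± 0.087 (SE, adjusted p = 5.5e-28). In spleen the mean was 0.672 TPM, and heart and liver were under 0.06 TPM. From the list of vitamin D targets, 7 genes were tested and 3 were enriched in kidney, namely the calcium-binding protein CALB1 (265.4 TPM ± 69.3), the vitamin D-degrading enzyme CYP24A1 (31.2 ± 29.8) and the calcium channel TRPV5 (7.52 ± 2.66). Of the other tested targets, 1 was enriched in heart and 1 in lung.

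The orphan receptor HNF4G, a relative of the hepatocyte factor HNF4A, had 16.7 TPM in the lowest, 54.8 in the median and 85.0 in the highest kidney, against 2.57, 7.61 and 20.5 in liver. The lowest kidney lay below the highest liver, so that the ranges overlapped, while the means differed by 2.41 ± 0.228 on the log2 scale (SE, adjusted p = 1.02e-11). The gene was listed at 0 in all 8 hearts. Its relative HNF4A, which is outside the 34 genes and is named after its values were seen, had 173.9 TPM in kidney and 120.3 in liver.

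The oestrogen-related receptors act without a known natural ligand and drive genes of oxidative metabolism. ESRRG was enriched in kidney, with values from 12.5 over 26.1 to 30.5 TPM, against 3.03 over 5.12 to 7.08 in heart and means under 0.6 TPM elsewhere. Kidney and heart did not overlap, and their log2 difference was 2.09 ± 0.147 (SE, adjusted p = 4.43e-15). The enrichment call depended on the scale, since the log2 difference fell to 1.28 after median-ratio scaling and to 1.85 without the mitochondrial genome, both under the 4-fold limit. HNF4G lost its enrichment call on the median-ratio scale alone, at 1.55. ESRRA was the most abundant of the 3 in every tissue and was highest in heart (120.4 ± 28.9) before kidney (98.9 ± 25.9), with ranges that overlapped and a log2 difference of 0.29 (adjusted p = 0.00375), which was 1.2 after median-ratio scaling (adjusted p = 7.87e-13). ESRRB was nearly limited to kidney (8.29 ± 5.19) and heart (2.15). Of the family's summed TPM, ESRRG made up 19.6% in kidney and 4.24% in heart, and ESRRA 74.4% and 94.0%. Among 6 tested genes on the list of oestrogen-related receptor targets, 5 were highest in heart, and 3 of these were enriched there, the mitochondrial creatine kinase CKMT2 (1534 TPM ± 338), the muscle cytochrome oxidase subunit COX6A2 (545.9 ± 161) and IDH3A of the citric acid cycle (389.2 ± 55.6). ESRRA itself is on that list.

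**Figure D2:**
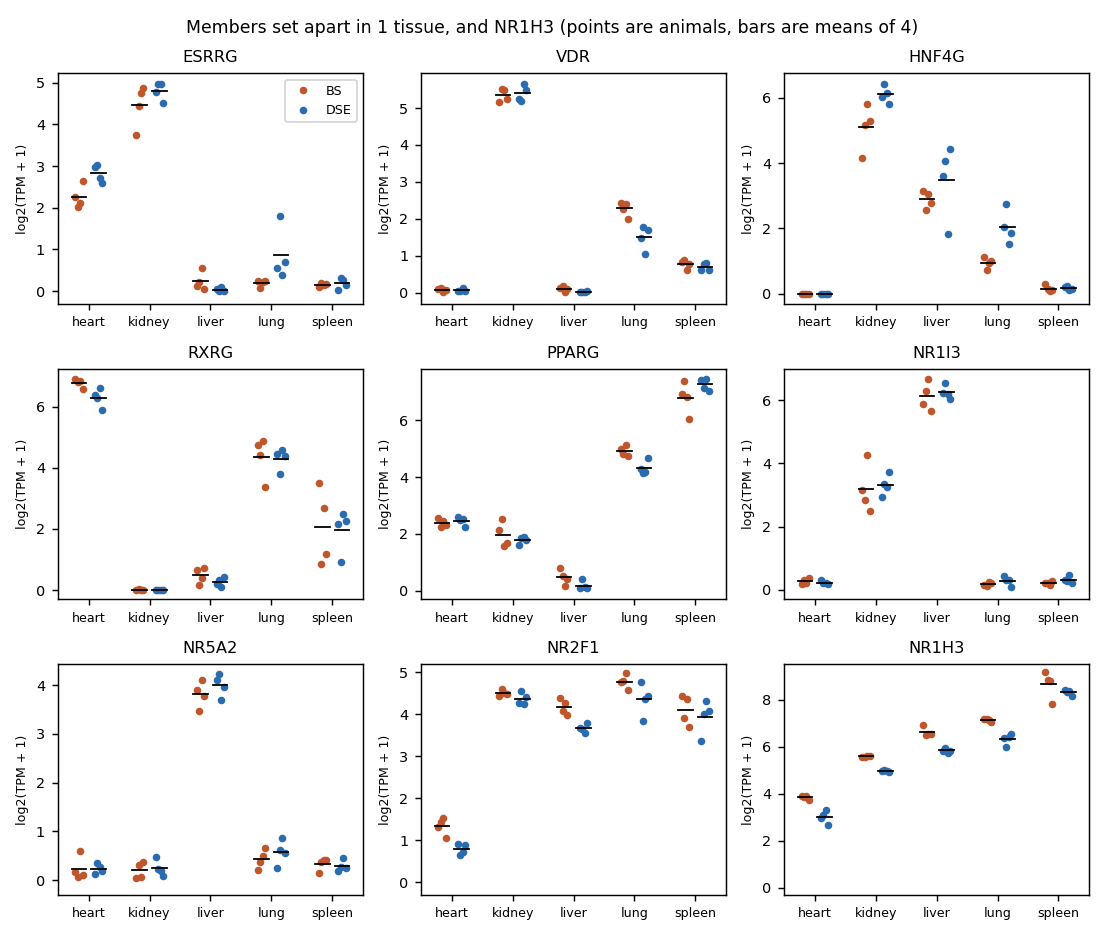
Levels of 9 receptor genes as log2(TPM + 1) in each short-read library (points, by tissue and pig group, with lines at the means of 4 animals). VDR in kidney (34.8 to 49.6 TPM) and NR5A2 in liver (10.1 to 17.6 TPM) stand clear of every other tissue, while the kidney and liver ranges of HNF4G meet.

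The RXR genes, the shared dimer partners, divided the tissues. RXRG was enriched in heart, with 58.9, 95.2 and 118.2 TPM in the lowest, median and highest animal, against 9.44, 20.4 and 28.6 in lung. The hearts all lay above the lungs, with a log2 difference of 2.21 ± 0.255 (SE, adjusted p = 8.07e-10). Spleen had 3.82 TPM, liver 0.310 and kidney 0.00368. RXRG therefore made up 78.6% ± 2.71 of the family's TPM in heart, 20.5% in lung and 4.68% in spleen. RXRA made up 11.8% in heart, 57.7% in lung, 71.0% in spleen, 71.4% in kidney and 89.8% ± 2.27 in liver. In TPM, RXRA was highest in liver (66.5 ± 20), then spleen (58.5), lung (55.5), kidney (37.0) and heart (13.9). RXRB ran on the TPM scale from 20.8 in lung to 6.87 in liver and was not the leading form in any tissue.

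Retinoic acid receptors were divided as well. RARA, broadly expressed, was highest in lung (47.3 ± 11.2) and spleen (36.7) and, on the TPM scale, lowest in heart (7.87), and it made up 83.7% ± 2.97 of the family in spleen. RARB was highest in kidney on the TPM scale (12.3 ± 3.60) and lowest in spleen (1.15). RARG had 17.04, 19.3 and 24.7 TPM in the lowest, median and highest lung and a mean of 7.31 in heart, a log2 difference of 1.34 (adjusted p = 3.12e-11). After median-ratio scaling heart minus lung was -0.23 and not called (adjusted p = 0.118). In heart the 3 forms were nearly equal at 34.7% for RARA, 32.4% for RARB and 32.9% for RARG. The list of retinoic acid targets had 8 tested genes, of which only the retinol receptor STRA6 was enriched, in kidney (101.7 TPM ± 32.1).

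Thyroid hormone receptors set the response to triiodothyronine. THRA was highest in heart (49.6 ± 6.0) and, on the TPM scale, lowest in liver (13.9), and THRB was highest in kidney on the TPM scale (15.6 ± 6.09) and lowest in spleen (3.68). The kidney and heart (12.3) levels of THRB did not differ beyond their spread (adjusted p = 0.293), and after median-ratio scaling heart was higher (log2 difference -0.60, adjusted p = 0.00715). That scaling put THRA lowest in spleen (liver minus spleen 0.26, adjusted p = 0.021). THRA was the larger form everywhere, from 64.5% of the pair in liver to 87.2% in spleen. Thyroid target genes enriched in heart were the myosins MYH7 (5480 TPM ± 585) and MYH6 (84.5 ± 62.0) and the calcium pump ATP2A2 (1052 ± 104). Of the 10 tested, 1 other was enriched in liver.

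Peroxisome proliferator-activated receptors (PPARs) sense fatty acids. PPARG, which governs lipid storage and also acts in macrophages, was enriched in spleen, with 65.6, 136.8 and 174.5 TPM in the lowest, median and highest animal. Lung, the next tissue, had 16.7, 25.2 and 34.1 TPM, without overlap, and the log2 difference was 2.42 ± 0.138 (SE, adjusted p = 3.55e-17). Heart (4.43), kidney (2.77) and liver (0.269) followed. PPARA, the receptor of fatty acid oxidation, had 28.2, 49.5 and 94.9 TPM in liver and a mean of 33.8 ± 14.5 in kidney, with overlapping ranges and a log2 difference of 0.62 (adjusted p = 0.0276). After median-ratio scaling kidney minus liver was -1.53 for PPARA. It reached 10.6 TPM in heart and about 2 TPM in spleen (2.25) and lung (1.84). PPARD varied least of the 3, from 23.5 TPM in spleen to 5.88 in heart. In consequence PPARA made up 85.5% ± 9.32 of the family in liver and 62.1% in kidney, and PPARG 83.1% ± 5.92 in spleen and 52.9% in lung. The PPAR target list had 16 tested genes, 7 highest in kidney and 5 in liver. Enriched genes among them were CREB3L3 in liver (271.5 TPM ± 68.4), and the carnitine transferase CPT1B (175.8 ± 24.5) and the lipase LPL (311.2 ± 64.0) in heart.

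**Figure D3:**
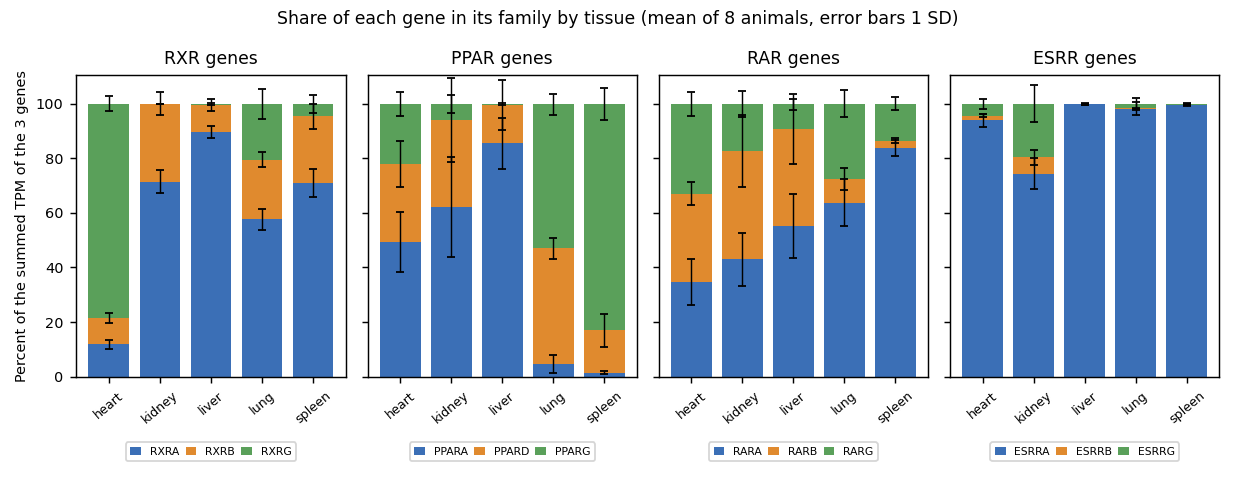
Stacked bars of each gene's mean percent of the summed TPM of its family in each tissue (RXR, PPAR, RAR and ESRR families, n = 8 animals a bar, error bars 1 SD). RXRG fills 78.6% of the heart bar and RXRA 89.8% of the liver bar, and PPARG fills 83.1% of the spleen bar and PPARA 85.5% of the liver bar.

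Summed TPM of 8 macrophage markers was highest where PPARG and NR1H3 were highest, from 11330 to 19750 in spleen and 4185 to 7058 in lung. It was 599.1 to 1684 in liver, 132.6 to 534.6 in heart and 75.1 to 318.9 in kidney. The lower tissues did not keep this order, since PPARG was lowest in liver and NR1H3 was lower in heart than in kidney. The part of these cells in the levels of PPARG and NR1H3 was not tested.

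NR1H3, the liver X receptor alpha that senses oxysterols, was the most abundant receptor of the set, with 224.8, 334.3 and 575.4 TPM in the lowest, median and highest spleen. Lung had 63.0, 112.3 and 144.9 TPM. Liver (77.2 ± 24.6), kidney (38.4 ± 9.10) and heart (10.3 ± 3.55) came next on the TPM scale, and each step in this order passed the test, with log2 differences of 1.75, 0.51, 0.96 and 1.84. After median-ratio scaling liver lay above lung (log2 difference 0.70, adjusted p = 2.22e-06). The annotation also holds a joint identifier that spans NR1H3 and its neighbour MADD on the same strand, with 85.2 TPM in spleen and 0.218 in heart, and reads of the shared exons cannot be assigned with certainty. Adding it to NR1H3 left spleen first (456.1 TPM) and heart last (10.5). NR1H3 also overlaps ACP2 on the opposite strand by 2785 nt. The broadly expressed NR1H2 (liver X receptor beta) varied less on the TPM scale, from 72.3 in lung to 26.8 in liver, and exceeded NR1H3 in heart, where NR1H3 held 24.2% of the pair. Enriched genes on the liver X target list of 11 tested were the sterol exporters ABCG8 (36.0 TPM ± 6.87) and ABCG5 (26.8 ± 9.29) and the lipoprotein APOE in liver, and the desaturase SCD in lung (119.9 ± 27.1).

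By TPM the bile acid and xenobiotic receptors were highest in liver, with kidney next. NR1H4, the farnesoid X receptor for bile acids, had 45.1, 74.6 and 117.6 TPM in the lowest, median and highest liver and 19.1, 42.8 and 113.7 in kidney. The ranges overlapped widely, the log2 difference was 0.80 ± 0.202 (SE, adjusted p = 0.000585), and lung, the next tissue, had 0.978. NR1I2, the pregnane X receptor, had 43.2 ± 9.65 TPM in liver and 32.1 ± 8.43 in kidney, with a log2 difference of 0.43 (adjusted p = 0.0118). After median-ratio scaling kidney minus liver was -1.71 for NR1H4 (adjusted p = 7.29e-10) and -1.34 for NR1I2 (adjusted p = 2.44e-10). NR1I3, the constitutive androstane receptor, was enriched in liver, with 49.6, 73.5 and 100.3 TPM against 4.65, 8.25 and 18.1 in kidney, a log2 difference of 2.93 ± 0.153 (SE, adjusted p = 1.14e-18). Of the sum of NR1I2 and NR1I3, NR1I3 made up 62.8% ± 4.41 in liver and 22.1% ± 5.94 in kidney. These 2 genes overlap GSK3B and TOMM40L on the opposite strand.

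Most tested targets of these receptors were highest in liver. Of 8 tested farnesoid targets, 6 were enriched in liver, led by FETUB (121.9 TPM ± 89.6), the bile salt exporter ABCB11 (89.8 ± 39.9) and APOA1, and the bile acid transporter subunits SLC51A (43.0 ± 10.5) and SLC51B (170.7 ± 26.0) were enriched in kidney. Of 11 tested xenobiotic targets, 10 were highest in liver and 5 enriched there, led by the sulfotransferase SULT2A1 (274.0 ± 142) and the cytochrome CYP3A29 (502.6 ± 145).

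NR5A2, a regulator of bile acid synthesis, had the lowest level of the enriched genes and one of the clearest gaps. Its liver values were 10.1, 14.3 and 17.6 TPM in the lowest, median and highest animal, and no other tissue mean exceeded 0.43 TPM. The log2 difference from lung was 3.41 ± 0.10 (SE, adjusted p = 5.5e-26). From the same subfamily, NR5A1, outside the 34 genes, was enriched in spleen (9.95 ± 2.53). The small receptor NR0B2, an inhibitory partner of NR5A2, was enriched in liver and varied widely there (36.0 ± 31.0).

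The glucocorticoid receptor NR3C1 was highest in spleen (43.4 ± 15.0) and lung (41.0 ± 16.6), and on the TPM scale between 12.4 and 13.0 in heart, kidney and liver. HSD11B2, which inactivates its ligand cortisol, was enriched in kidney (265.9 ± 94.7). ESR1, an oestrogen receptor, was low throughout, with 1.36, 3.54 and 6.01 TPM in the lowest, median and highest liver and 0.287 in heart. NR6A1, which represses germ cell genes, reached 1.13 TPM in kidney and less than 1 TPM elsewhere.

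Clock receptors repress or activate the core clock gene ARNTL (BMAL1). On the TPM scale NR1D2 ran from 65.7 ± 24.6 in lung to 31.1 in heart, and NR1D1 from 16.7 ± 4.90 in spleen to 7.21 in heart. No tissue differed from its neighbour in the order of NR1D1 levels, although the F test passed (adjusted p = 0.00787). The ends of NR1D1 and THRA overlap on opposite strands by 1582 nt. RORA was 18.4 ± 28.6 TPM in liver, where a single DSE animal had 88.7 TPM and the median was 8.66. Without that animal liver lay below lung on the TPM scale (log2 difference -0.13). After median-ratio scaling of all animals, liver lay above lung (log2 difference 1.29, limma, adjusted p = 0.000163). The other tissues had RORA means from 10.9 (lung) to 2.68 (heart).

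COUP and testicular receptors bind DNA without a known natural ligand and mostly repress. NR2F1 was depleted in heart, with 0.569, 0.992 and 1.87 TPM in the lowest, median and highest animal and 14.5 TPM in liver, the next lowest tissue (log2 difference 2.86, adjusted p = 2.3e-21). No heart reached the range of another tissue. The share of genes depleted in heart was 0.728%. NR2F2 was highest on the TPM scale in spleen (46.4) and kidney (43.1) and lowest in heart (11.6). On the TPM scale NR2F6 had another order, with liver first (107.0 ± 41.9), then kidney (71.3), heart (47.8), spleen (23.0) and lung (21.5), and made up 77.4% of the 3 NR2F genes in heart. After median-ratio scaling NR2F6 was higher in heart than in kidney (log2 difference 0.33, adjusted p = 0.0274). NR2C1 and NR2C2 were highest on the TPM scale in spleen (9.08) and lung (13.0), and lowest in heart (3.12) and liver (3.16). NR2C2 overlaps MRPS25 on the opposite strand by 3101 nt.

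Many receptor genes have several promoters, so the 5′ ends of their annotated transcripts were grouped into start sites by joining ends within 500 nt, and each site's share of the gene's TPM was compared between tissues in which the gene had a mean of at least 5 TPM. A shift counted as called at an adjusted p under 0.05 and at least 20 percentage points. Of 23 members with more than 1 site, 19 could be tested and 9 had a called shift between some pair of tissues (HNF4G, NR1H4, PPARG, RXRG, RXRA, THRA, RARA, RARG and NR3C1), against 18.2% of 4524 genes. This test was chosen after the data had been seen. Sites are numbered along the direction of transcription, with chromosome positions as the deposited annotation gives them. The submitters' processing notes name the build susScr11. Where transcripts share most exons, their TPM depend on how the quantification divided the reads among them.

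HNF4G, on the minus strand of chromosome 4, differed in start site use between its 2 main tissues. Site 3 (60533978 to 60533991) gave 77.0% ± 10.3 of its TPM in kidney, from 64.3% to 89.5%, and 0.362% in liver, where no animal passed 1.56%. Site 1, upstream (60637336 to 60637434), gave 4.58% ± 1.45 in kidney and 79.5% ± 11.2 in liver. For site 3 the log2 ratio to the other sites differed by 5.75 ± 0.38 (SE, adjusted p = 6.54e-09). The main long-read transcript from site 3 has an open reading frame of 447 codons and that from site 1 of 409. Full-length reads of annotated long-read transcripts placed 159 of 391 kidney reads at site 3 (40.7%, exact 95% interval 35.8 to 45.7) and 231 at site 1 (59.1%, 54.0 to 64.0). In liver all 24 were at site 1 and 0 at site 3, which allows a share of up to 12.5% by the limit of 3 counts (exact upper bound 14.2%). Both methods showed site 3 in kidney, but site 1 led there by full-length reads and site 3 by TPM. Intervals and this limit cover counting error only.

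NR1H4, on the minus strand of chromosome 5, showed a change of the same kind. Site 2 (83683046 to 83683198) gave 64.2% ± 3.52 in liver and 1.89% ± 1.18 in kidney, and the downstream site 3 (83652206 to 83652239) gave 34.7% ± 5.32 and 98.1% ± 1.18. No liver met a kidney, and the log2 ratio for site 2 was lower in kidney by 5.84 ± 0.19 (SE, adjusted p = 3.24e-12). Of the full-length reads, 65 of 80 in liver were at site 2 (81.2%, exact 95% interval 71.0 to 89.1) and 68 of 81 in kidney at site 3 (84.0%, 74.1 to 91.2). Both methods put the same site first in each tissue, but the site 2 shares were higher by full-length reads. In kidney, site 2 held 16% of these reads (8.83 to 25.9), while no kidney passed 4.36% by TPM. The 2 kidney libraries differed, with 13 reads at site 2 and 53 at site 3 in BS, and 0 and 15 in DSE. Liver and kidney thus differed in where most transcripts of this gene began.

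RXRG, on the plus strand of chromosome 4, began at site 3 (85328900 to 85328984) for 98.2% ± 0.42 of its TPM in heart and 17.3% ± 13.0 in lung. The upstream site 1 (85308508 to 85308515) gave 1.84% and 82.7% ± 13.0, and the log2 ratio of site 3 differed by 7.90 ± 0.55 (SE, adjusted p = 6.19e-09). The transcripts of site 3 have an open reading frame of 341 codons and those of site 1 of 464 and 435. All long-read transcripts of RXRG in the annotation start at site 3, so full-length reads could not test this difference.

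PPARG, on the plus strand of chromosome 13, had 3 sites. The most downstream, site 3 (68363873), gave 54.9% ± 8.02 in lung, from 44.5% to 70.0%, and 0.0485% in spleen, where no animal passed 0.162%. Its log2 ratio differed by 8.16 ± 0.26 (SE, adjusted p = 1.46e-11). In spleen site 1 (68301619 to 68301621) gave 60.6% and site 2 (68302322 to 68302658) 39.4%. The longest open reading frame from site 3 has 505 codons and all long-read transcripts from sites 1 and 2 have 476. Of 45 full-length reads in spleen, 30 were at site 1 and 15 at site 2. Lung had 6 such reads, and no long-read transcript of the annotation starts at site 3.

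**Figure D4:**
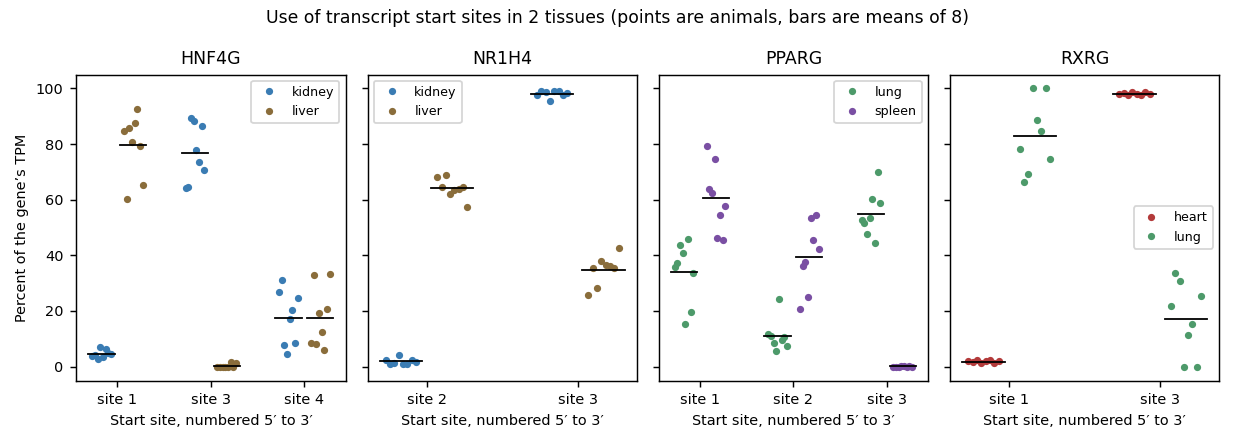
Percent of gene TPM from each start site of HNF4G, NR1H4, PPARG and RXRG in the 2 tissues compared for each (points are animals, bars are means, n = 8). By TPM the leading site differs between the tissues in HNF4G (77.0% at site 3 in kidney, 79.5% at site 1 in liver), NR1H4, RXRG and PPARG.

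Shifts were also called in the other 5 genes. RXRA (chromosome 1) moved from site 4 (273770359) in heart (76.7% ± 22.2) to site 3 (273756916) in spleen (78.2% ± 6.90), with an adjusted p of 3.02e-05 for site 4. The hearts were spread from 40.7% to 100%. THRA (chromosome 12) used site 3 (22286590) for 20.5% in heart and 48.6% in liver (adjusted p = 9.61e-10), without overlap. That site holds 1 transcript, of 411 codons, whose exons share 0 nt with NR1D1. RARG used site 1 for 11.2% in heart and 34.8% in lung, RARA site 1 for 32.5% in liver and 57.8% in spleen, and NR3C1 site 1 for 1.13% in kidney and 22.9% in spleen. By single transcripts rather than sites, 15 members could be tested over all tissues and 5 were called (NR3C1, RARA, RXRA, THRA and THRB), against 23.8% of genes.

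The long-read libraries gave a separate measure of gene levels. Reads were summed per gene, and edgeR's quasi-likelihood test over tissues with pig group as a term tested 11 members and called 9, against 68.9% of 4110 genes. HNF4G had 328 reads in the BS kidney and 63 in the DSE kidney, 17 and 7 in liver, and 0 in both hearts (adjusted p = 2.59e-50). NR1H4 had 115 and 33 in kidney and 54 and 53 in liver (adjusted p = 1.03e-46), in counts not scaled for depth. RXRG had 32 and 31 in heart and 7 and 11 in lung (adjusted p = 3.11e-14), and PPARG 22 and 23 in spleen with no more than 4 elsewhere (adjusted p = 1.08e-14). NR1I2 had 59 and 30 reads in kidney and 49 and 28 in liver. Assigned reads were 399295 (BS) and 146209 (DSE) in kidney and 256030 and 192874 in liver. Scaled to these and summed over both pig groups, NR1H4 and NR1I2 were highest in kidney, while by TPM both were highest in liver. The pig groups disagreed, however. Scaled NR1H4 reads were higher in kidney in BS and in liver in DSE, and NR1I2 reads the reverse. With a single library per pig group and tissue, these reads do not settle the order of kidney and liver. The other called members were RARB, RORA, NR1H3 and NR3C1, and NR1D2 (adjusted p = 0.18) and NR2C1 (adjusted p = 0.162) were not called. For 13 members, VDR, RXRA, PPARA and ESRRA among them, no full-length read was assigned. Reads were assigned to genes only through long-read transcripts in the annotation, which holds none for these 13. Their lack of reads was thus set by the assignment and does not measure their level.

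BS and DSE were compared within each tissue (4 against 4 animals, limma, adjusted p under 0.05, no minimum fold). In heart 10 of 25 tested members were higher and 3 lower in BS, against 36.6% of all genes called (23.3% higher and 13.3% lower). In kidney 7 of 30 were higher and 2 lower, against 33.6% (19.2% and 14.5%). Liver had 6 of 27 higher and 2 lower, against 26.9% (17.5% and 9.36%). Lung had 7 of 27 higher and 9 lower, against 41% (14.3% and 26.7%), and spleen 4 of 24 higher and 5 lower, against 27.2% (10.8% and 16.5%). On each animal's mean over the tissues, 9 of 33 were higher and 9 lower, against 55.3% of all genes (25.2% and 30.1%). The shares called lay near the background in kidney, liver and over tissues, and above it in heart, lung and spleen, where the difference from the background was not tested. The median log2 difference over tissues was 0.05 for the members and -0.05 for all genes tested. In lung the medians were -0.06 and -0.21, and after median-ratio scaling the lung counts were 10 higher and 8 lower. Without the mitochondrial genome the heart counts were 7 higher and 5 lower. Single animals weighed on the sums of calls, which were 8 in heart without DSE animal 1, 14 in kidney without BS animal 3, 10 in lung without DSE animal 3, and in spleen 4 without BS animal 1 or BS animal 3, 3 without DSE animal 2 or DSE animal 4, and 2 without DSE animal 3.

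RARA and NR1H2 were higher in BS in all 5 tissues. RARA had 9.78, 11.6, 9.44 and 9.35 TPM in the 4 BS hearts and 5.62, 5.58, 5.66 and 5.88 in the DSE hearts. No BS heart met a DSE heart, and over tissues the log2 difference was 0.67 ± 0.091 (SE, adjusted p = 0.000277). In spleen the RARA ranges overlapped (34.5 to 52.1 against 25.4 to 35.0 TPM). NR1H2 in lung had 87.9, 74.1, 84.7 and 88.9 TPM in BS and 61.2, 56.8, 63.0 and 61.8 in DSE, again without overlap, and differed over tissues by 0.50 ± 0.052 (SE, adjusted p = 7.79e-05).

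NR2F6, NR1H3, ESRRA and PPARD were higher in BS in 4 tissues each. NR2F6 had 60.9, 75.6, 59.1 and 63.1 TPM in the BS hearts and 33.4, 25.01, 32.1 and 33.02 in the DSE hearts, and the largest difference over tissues, 0.80 ± 0.096 on the log2 scale (SE, adjusted p = 0.00015). NR1H3 had 144.6, 144.9, 140.5 and 132.0 TPM in the BS lungs and 81.5, 63.0, 83.9 and 92.6 in the DSE lungs (0.68 ± 0.082 over tissues, adjusted p = 0.000146). In spleen NR1H3 was not called, and a BS animal with 224.8 TPM lay below all DSE animals. ESRRA had 125.1, 126.1, 123.2 and 116.7 TPM in the BS kidneys and 70.3, 79.9, 78.0 and 71.5 in the DSE kidneys. PPARD had 24.7, 25.2, 24.0 and 24.3 TPM in the BS lungs and 15.4, 14.8, 12.9 and 15.2 in the DSE lungs. In these sets of values all BS animals lay above all DSE animals. NR2F1 (0.36), RXRA (0.30) and VDR (0.18) were also higher over tissues, and the VDR call was lost when any animal but BS animal 4 was left out.

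NR1D2 was lower in BS in 4 tissues and NR3C1 in 3. The NR3C1 values in spleen were 26.4, 36.4, 36.8 and 22.1 TPM in BS and 59.2, 54.9, 61.0 and 50.4 in DSE. In lung they were 26.3, 16.8, 29.2 and 36.9 TPM against 64.8, 44.5, 57.1 and 52.3. All BS animals lay below all DSE animals in both tissues, and the log2 difference over tissues was -0.65 ± 0.102 (SE, adjusted p = 0.000589). NR1D2 had 50.1, 27.0, 45.9 and 61.8 TPM in the BS lungs and 102.3, 83.6, 85.6 and 69.7 in the DSE lungs, with -0.68 ± 0.103 over tissues (SE, adjusted p = 0.000489). RORA (-0.78), HNF4G (-0.54), PPARA (-0.49), NR2C2 (-0.42), NR2F2 (-0.34), NR2C1 (-0.32) and ESRRG (-0.29) were also lower over tissues. The part of the hour of sampling in the values of the clock receptors NR1D2 and RORA was not tested.

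**Figure D5:**
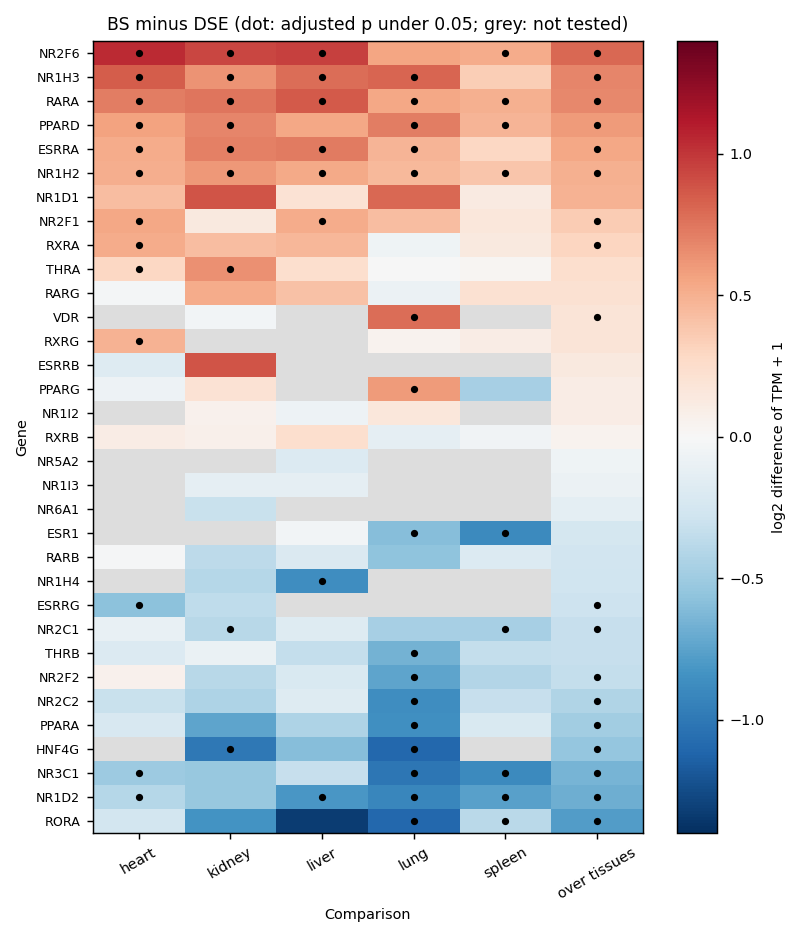
Heat map of the difference in log2(TPM + 1) between BS and DSE (BS minus DSE) for each receptor gene in each tissue and over tissues, with dots on adjusted p-values under 0.05 and grey where not tested. RARA and NR1H2 carry dots in all 5 tissues, while NR1H4 carries one in liver alone.

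Other differences passed in 1 or 2 tissues. NR1H4 in liver had 55.3, 45.1, 55.7 and 57.9 TPM in BS and 92.5, 91.3, 117.6 and 94.5 in DSE, without overlap (log2 difference -0.87 ± 0.130, SE, adjusted p = 0.00378). Of 8 liver markers, 2 were higher in BS and 0 lower in liver (median log2 difference -0.22), while 0 were higher and 5 lower over tissues, and their sum in liver was 59070 to 78310 TPM in BS and 78190 to 117100 in DSE. PPARG in lung had 30.6, 27.3, 34.1 and 25.8 TPM in BS and 18.4, 16.7, 17.4 and 24.5 in DSE without overlap (0.60 ± 0.149, SE, adjusted p = 0.0145). The summed adipocyte markers were at 60.9 to 81.8 TPM in the BS lungs and 30.2 to 49.2 in the DSE lungs. Of 4 tested there, 1 was higher in BS and 0 lower (median log2 difference 0.19), against 14.3% and 26.7% of all genes. LEP, also on that list, was at 0.026 TPM. HNF4G in kidney had 16.7, 34.7, 54.5 and 37.8 TPM in BS and 64.3, 85.0, 68.9 and 55.1 in DSE, without overlap (log2 difference -1.005, adjusted p = 0.037). It was also lower in the BS lungs, with 1.21, 0.643, 0.927 and 1.02 TPM against 3.16, 5.75, 1.87 and 2.64, without overlap (-1.095, adjusted p = 0.0127). Macrophage markers in kidney summed to 151.9 to 318.9 TPM in BS and 75.1 to 101.6 in DSE. The part of these other cells or of overall liver gene levels in the results was not tested.

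VDR was the only member whose BS to DSE difference varied between tissues by the interaction test (adjusted p = 0.00755), against 8.4% of all genes. In lung it had 4.41, 3.84, 4.30 and 3.01 TPM in BS and 1.78, 2.46, 1.08 and 2.23 in DSE (log2 difference 0.78 ± 0.203, SE, adjusted p = 0.017). In kidney it had 34.8, 45.1, 44.1 and 36.8 against 36.6, 35.8, 49.6 and 44.2 TPM (-0.04, adjusted p = 0.83). The lung groups did not overlap and the kidney groups did. For PPARG the interaction had an adjusted p of 0.0674, or 0.0444 with the animal as a block.

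Across all genes the BS to DSE difference moved with transcript length. Over tissues, Spearman's rho across 16905 genes, which are not independent replicates, was -0.27, and the median log2 difference was 0.09 in the shortest of 4 equal groups of genes by length and -0.20 in the longest. Of the members, 3 fell in the shortest group (1 higher and 0 lower in BS) and 10 in the next (4 higher and 0 lower). The third group held 11 (3 higher and 5 lower) and the longest 9 (1 higher and 4 lower). The part of length in the members' differences was not tested. In transcript usage, 0 of 15 tested members were called between the pig groups by limma under the 20-point rule, against 8.15% of genes, and 1 when BS animal 2 or DSE animal 1, 2 or 3 was left out. Without that rule 16 of 44 member transcripts had an adjusted p under 0.05, against 33.3% of all transcripts, and 20 an unadjusted p under 0.05. The nearest was NR2F2, whose transcript ENSSSCT00000058785 made up 34.8% in BS and 54.4% in DSE, 19.7 points apart (adjusted p = 0.000244), and next an RXRA transcript from site 4 with 57.1% and 38.7%.

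The cofactors and the targets were listed from general knowledge, with earlier results of these data known, and their counts stand beside the 25.2% of all genes higher and 30.1% lower in BS over tissues. All 13 coactivators were tested, none was enriched in a tissue, and over tissues 2 were higher and 8 lower in BS (median log2 difference -0.33), led by the acetyltransferase KAT2B (-0.58), NCOA7 (-0.55) and NCOA4 (-0.54). Of 8 corepressors, 4 were higher, by 0.23 to 0.45, and 3 lower, namely LCOR (-0.71), NRIP1 (-0.62) and TBL1XR1 (-0.58), with a list median of 0.20. On the liver X target list, 4 were higher, among them the lipogenic regulator SREBF1 (1.07) and the fatty acid synthase FASN (1.05), and 3 lower, among them SMPDL3A (-0.64). PPAR targets were split 4 and 4, with the lipase inhibitor ANGPTL4 (0.80) higher and PDK4 (-0.91) and VNN1 (-0.70) lower. Of 8 farnesoid targets, 1 was higher (NR0B2, 0.35) and 2 lower (SLC10A1, -0.69, and ABCB11, -0.31). Of 12 glucocorticoid targets, 3 were higher and 2 lower, led by MT1A (-1.28), PER1 (1.0) and ANGPTL4 (0.80). Of 14 clock partners, 4 were higher and 3 lower, led by PER1, CLOCK (-0.78) and BHLHE40 (0.54).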

How the data were processed

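The gene and transcript tables were deposited by the authors as TPM, each column summing to 1000000, so that short-read depth is unknown. Full-length reads were deposited as counts per transcript (119623 to 456783 per library). Per the submitters' processing notes, STAR 2.7.10a, Salmon 1.10.1 and susScr11 were used, with no roles given. Per the file headers, rtracklayer 1.58.0 wrote the annotation. RNA extraction used Trizol and acid phenol, per the labels' protocols. Whether counting used strand is not given in the sources used here. In all, 20 gene, 20 transcript and 5 count columns matched no label and were not used, and samples labelled DT were not analysed here.

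Members, lists and tests were chosen with earlier results of these data known. Genes averaging 1 TPM or more in a compared group were tested with limma 3.58.1 (R 4.3.3) on log2(TPM + 1) with a trend, Benjamini-Hochberg adjustment over all genes tested and a threshold of 0.05. BS and DSE were compared over tissues on animal means. Usage and start sites were tested on log2 ratios with a pseudocount of 0.5 TPM, at least 20 points required. Full-length counts per gene were tested with edgeR 4.0.16 (TMM), with DESeq2 1.42.0 as an alternative. Every member is named, and of each list up to 3 genes with the largest change that passed. Some targets are on several lists, and some that the rule names are not reported here. The data.table package (1.17.8), Python 3.11.15, pandas 2.3.3, numpy 2.4.6 and matplotlib 3.10.9 were used. Functions were tested on simulated data. Titles carry the same code and number across the tissues of an animal, while equal numbers in BS and DSE mark different animals. No RefSeq sequence was used.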

Additional observations from a re-analysis of the deposited data

Results flagged for a closer look

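Among 261 groups of 4 animals, 15 held an animal whose gap to the next, divided by the group's range, was above Dixon's critical value, and chance flags about 1 in 20 groups. The widest gap in TPM was that of RORA in liver, where DSE animal 3 had 88.7 TPM and the other DSE animals 8.72 to 13.9. The largest gap over range was 0.971, for THRB in the kidney of DSE animal 2, against 0.935 for RORA. In kidney, THRB was at 27.7 TPM in BS animal 3 (others 9.47 to 12.5) and at 22.2 in DSE animal 2 (others 13.3 to 13.6). NR1D1 was at 19.8 TPM in the liver of BS animal 2 (others 4.37 to 6.26) and at 14.8 in the lung of DSE animal 1 (others 5.23 to 6.59). In liver, NR1H3 was at 120.9 TPM in BS animal 1 (others up to 91.4), NR1H4 at 117.6 in DSE animal 3 (others up to 94.5), NR1I2 at 59.8 in DSE animal 2 (others up to 40.2) and NR2C1 at 3.61 in BS animal 1 (others up to 2.997). In lung, ESR1 was at 2.06 TPM in DSE animal 2 (others up to 1.32) and NR2F2 at 37.2 in DSE animal 1 (others up to 29.1). In spleen, NR1H2 was at 59.8 TPM in DSE animal 2 (others up to 52.9) and NR2C2 at 12.5 in BS animal 2 (others up to 9.26). In heart, THRA was at 48.4 TPM in DSE animal 3 (others up to 43.5), and NR2F6 at 25.01 in DSE animal 2, below the others at 32.1 to 33.4.

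The difference between BS and DSE varied between tissues for VDR, with an adjusted p of 0.00755 in limma's interaction test, and its lung and kidney values are given above.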

How the results depend on the processing

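The 33 members differing over tissues were 31 to 34 under every alternative tried, and the 7 enriched were 5 after median-ratio scaling (without ESRRG and HNF4G) and 6 without the mitochondrial genome. With a pseudocount of 0.1 TPM 3 members were depleted (RARB in spleen and PPARG in liver besides NR2F1), and 2 with 0.5 TPM. Leaving out 1 animal gave 8 to 16 calls between BS and DSE in heart (13 with all), 7 to 14 in kidney (9), 7 to 9 in liver (8), 10 to 18 in lung (16), 2 to 9 in spleen (9) and 14 to 20 over tissues (18). Kidney also had 14 with 1 spread shared over all libraries. Equal numbers in BS and DSE did not pair the animals, with a mean correlation of deviations from -0.115 to -0.00946 by tissue. With the replicate number as a block the lung count was 9, and 2 members (VDR and PPARG) had a difference that varied between tissues, where the block was the animal. Of 73 single-gene calls between BS and DSE, none reversed, 20 were lost without the filter on low values and 16 under the block. Usage calls over tissues were 8 instead of 5 with a gene minimum of 1 TPM, and 5 to 6 with 1 animal left out. Between the pig groups usage calls were 1 with that minimum, and 0 to 1 with 1 animal left out. Full-length reads gave 7 calls with no replicate block (pig group not a term), 13 without a filter, 9 with DESeq2 and 9 to 10 without 1 library, where the lone library of a tissue is assumed to vary like the others. Start sites gave 10 members with a joining distance of 100 nt or a gene minimum of 2 TPM, and 9 otherwise.

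Directions between the 2 highest tissues reversed after median-ratio scaling for THRB (-0.60, kidney minus heart), RARB (-0.18, same tissues), RXRB (-0.06), NR1D2 (-0.03) and NR2C2 (-0.06, each lung minus spleen), NR2F1 (-0.15, lung minus kidney) and NR2F2 (-0.02, spleen minus kidney). Below the highest tissues, that scaling also turned lung and liver for NR1H3, heart and kidney for NR2F6 and liver and spleen for THRA, as given above. Without the mitochondrial genome they did for THRB (-0.05), NR2F1 (-0.12) and NR2F2 (-0.17). With 1 animal left out, NR2C1 ran from -0.02 to 0.15 and NR3C1 from -0.04 to 0.26 (spleen minus lung), NR1D2 from -0.05 to 0.36 and NR2C2 from -0.03 to 0.27 (lung minus spleen), and RORA from -0.13 to 0.36 (liver minus lung). The cause was not tested. Over all genes, calls between BS and DSE were 2147 higher and 4008 lower in lung and 3310 and 2853 after median-ratio scaling, 1496 and 2289 in spleen and 2424 and 1855 on that scale, and 2863 and 1633 in heart and 1937 and 3059 without the mitochondrial genome. Short-read depth is unknown, so the precision of TPM values near 0 is unknown too.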

Other observations

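Outside the comparisons above, the bile acid enzyme CYP7A1 reached 113.5 TPM ± 46.1 (SD, n = 8) in lung and 103.4 ± 132 in liver, and 0.110 or less in the other tissues. In lung, the receptors NR4A1 (274.7 TPM ± 135) and NR4A2 (38.1 ± 21.2), which are induced within minutes by many stimuli, were enriched, and NR4A1 was higher in BS over tissues by 0.99 on the log2 scale (limma, adjusted p = 0.00471). The mineralocorticoid receptor NR3C2 was lower in BS (log2 difference -0.60, adjusted p = 0.00185).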
